A study of Mus musculus with 14 samples.

Results

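Transcripts of adipokines and other proteins that fat tissue secretes were followed across mouse mammary tumors and mammary glands. The members were 6 genes chosen by name: Retn, Adipoq, Cfd, Lep, Rbp4 and Agt. A probe set counted as a member when the platform annotation gave it 1 of these symbols. That rule found 6 of the 12488 probe sets on the array, for 5 of the 6 genes: 2 probe sets for Lep and 1 each for Retn, Adipoq, Rbp4 and Agt. No probe set carried the symbol Cfd, the gene of complement factor D (adipsin), and it is not analysed here.

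The series compared MMTV-neu tumors, from mice whose neu (ErbB2) oncogene is driven by the mouse mammary tumor virus promoter, with gland next to such tumors and with age-matched wild-type gland. RNA of each of 14 samples was hybridised to 1 array: 5 tumors, 2 tumors of a second group, set B, 4 adjacent glands from MMTV-neu mice, called preneoplastic in the labels, and 3 wild-type pools. Each wild-type pool held the RNA of 5 mice: pool 40 came from mice of 31 weeks with an FVB share of 87.5% and a CF-1 share of 12.5%, and pools 41 and 42 from mice of 41 weeks with shares of 97% and 3%. The labels give no age for the transgenic samples and do not tie each sample to a separate mouse. The p-values therefore cover the spread between samples, which may be partly technical.

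White adipocytes store triglyceride, and they also release hormones into the blood. Adiponectin and leptin signal the state of fat stores to liver, muscle and brain. Resistin, a small cysteine-rich protein, is made by adipocytes in mice, and retinol-binding protein 4 and angiotensinogen are shared products of liver and fat. The mouse mammary gland outside pregnancy is a thin epithelial tree embedded in a fat pad, so RNA of whole gland contains RNA of adipocytes.

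The labels name 5 array lots. Tumors 22, 24 and 26 shared lot 2001815 with adjacent glands 23 and 25, while adjacent glands 49 and 51 shared lot 2004907 with pool 40. Tumors 50 and 52 had lot 2004097, pools 41 and 42 lot 2003877 and set B tumors 80 and 81 lot 2006609. By these numbers each pair shared a lot with no other group, so tumors and wild-type gland were linked only through the adjacent glands. Lots 2004097 and 2004907 differ only by the order of their digits, and both readings were run. Taken as 1 lot, they would link tumors 50 and 52 to pool 40 directly. The labelled tissues were set against marker genes. The summed intensity of 20 white adipocyte markers was 382448 to 479047 in the wild-type pools, 184372 to 345706 in adjacent gland, 21760 to 29562 in tumors and 22946 to 30034 in set B. The sum of 15 luminal epithelial markers was 55047 to 59949, 64126 to 96723, 91443 to 140991 and 83578 to 114401 in the same order. At a limma adjusted p under 0.05, 9 of the 14 tested were higher in tumors than in wild-type gland and 1, Krt19, was lower (log2 difference -5.78). The lipid droplet genes Plin4 and Cidec and the carboxylesterase gene Ces1d were at the floor (101.42, the lowest intensity distinguished here) in every tumor. Fewer adipocytes and less RNA per adipocyte cannot be told apart in such bulk samples, and the part of cell content in the results below was not tested. The actin control probes, a sign of RNA quality, had 3' over 5' ratios of 0.08 to 0.76 on the log2 scale in tumors, 0.14 to 0.21 in set B, 0.90 to 1.51 in wild-type pools and 0.38 to 1.52 in adjacent gland. Its part in the results was not tested.

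Because several of these genes fell together, the 150 bases before the RefSeq transcription start of each of the 5 measured members are shown (assembly GRCm38.p6, sequence and start from RefSeq, 5' to 3' on the strand of the gene). The array files name no genome build, so these positions belong to the sequences only. Capitals mark every match on either strand to 4 motifs: TTGCNNAA (a form of the C/EBP motif), TATAA (the TATA box), CCAAT (the CCAAT box) and AGGTCA (the core of many nuclear receptor sites).
Retn (chr8:3655620-3655769, plus strand): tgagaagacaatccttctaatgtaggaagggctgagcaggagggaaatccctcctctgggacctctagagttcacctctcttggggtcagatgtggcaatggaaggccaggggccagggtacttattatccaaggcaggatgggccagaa
Adipoq (chr16:23146386-23146535, plus strand): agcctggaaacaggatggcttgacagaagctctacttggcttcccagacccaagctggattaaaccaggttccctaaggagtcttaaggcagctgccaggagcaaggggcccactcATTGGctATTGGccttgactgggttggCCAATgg
Lep (chr6:29060071-29060220, plus strand): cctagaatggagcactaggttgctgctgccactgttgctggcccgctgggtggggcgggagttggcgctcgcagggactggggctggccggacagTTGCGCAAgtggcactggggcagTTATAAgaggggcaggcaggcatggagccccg
Rbp4 (chr19:38124812-38124961, minus strand): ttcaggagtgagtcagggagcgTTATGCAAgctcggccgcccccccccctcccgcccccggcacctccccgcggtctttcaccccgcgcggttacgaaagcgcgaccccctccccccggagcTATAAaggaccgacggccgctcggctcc
Agt (chr8:124569707-124569856, minus strand): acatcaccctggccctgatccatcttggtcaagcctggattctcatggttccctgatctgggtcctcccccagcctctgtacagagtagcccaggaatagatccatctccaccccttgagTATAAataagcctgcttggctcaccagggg

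The matches differed between the genes. Lep held TTGCGCAA, whose first base lies 55 bases before the start, and a TATAA match that begins 31 bases before it and overlaps a match on the other strand that begins 32 bases before it. Agt held TATAA 30 bases before its start. Rbp4 has 2 start sites in RefSeq. The one shown held TTATGCAA 128 bases and TATAA 28 bases before the start, and the 300-base window of the other held 1 CCAAT match. Adipoq held 3 CCAAT matches, 34, 27 and 7 bases before its start, and the Retn window held none of the 4 motifs. Among 32851 RefSeq promoter windows of 300 bases (250 before and 50 after the start), TTGCNNAA occurred in 10.8%, TATAA in 24.87%, CCAAT in 37.41% and AGGTCA in 16.26%. Since Retn held none, no motif could be common to all the genes shown. Lep and the Rbp4 start shown each held TTGCNNAA and TATAA, Agt held TATAA alone and Adipoq held CCAAT alone. A missing match says only that these letters are not in the window.

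**Figure D1:**
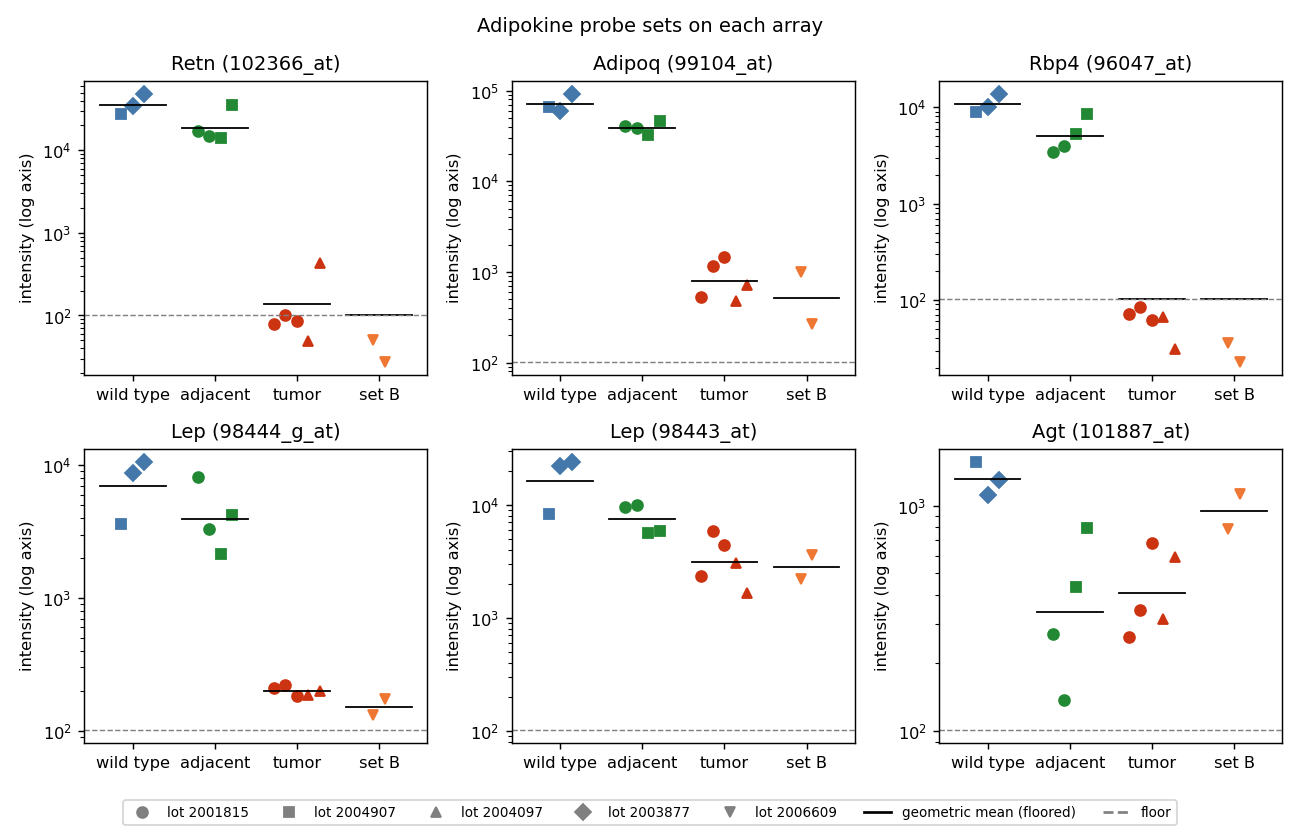
Deposited intensity of the 6 member probe sets on each of the 14 arrays (log axis), by group, with the array lot as the symbol. Bars are geometric means after values under the floor of 101.42 (dashed line) were set to it, so a bar at the floor lies above its points. Retn, Adipoq, Rbp4 and Lep 98444_g_at are separated between tumors and glands by more than the spread within groups. Lep 98443_at and Agt overlap between tumors and adjacent gland.

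Resistin transcript showed the widest range of the members. Retn (102366_at) measured 27325, 34516 and 47509.8 in wild-type pools 40, 41 and 42. It measured 17179, 14831, 14096 and 35396 in adjacent glands 23, 25, 49 and 51. In tumors 22, 24, 26, 50 and 52 it was 78.7, 100.7, 84.7, 48.8 and 437, and in set B tumors 80 and 81 it was 50.8 and 27.3. Every gland was thus far above every tumor, 4 of the 5 tumors and both set B tumors were under the floor, and tumor 52 alone kept a signal above it. The log2 difference of Retn between tumors and wild-type gland was -8.03 ± 0.44 (SE, limma adjusted p = 2.96e-09), and this is a lower bound because of the floored values. It fell at least 350-fold in set B (log2 difference -8.45 ± 0.55, adjusted p = 3.96e-08). Without tumor 52 all tumors are at the floor, and the difference between tumors and wild-type pools is at least -8.45.

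Adiponectin transcript was lower in tumors but remained above the floor. Adipoq (99104_at) measured 65733, 59326 and 90705 in wild-type pools 40, 41 and 42. In adjacent glands 23, 25, 49 and 51 it was 40380, 39127, 31979 and 45744. Every adjacent gland was below every wild-type pool. Tumors 22, 24, 26, 50 and 52 had 530, 1170, 1472, 473 and 726, and set B tumors 80 and 81 had 990 and 264. Adipoq was 89.2-fold lower in tumors than in wild-type gland (log2 difference -6.48 ± 0.40, limma adjusted p = 1.06e-08) and 138-fold lower in set B (-7.11 ± 0.50, adjusted p = 8.90e-08). The set B value was -8.06 without tumor 80 and -6.16 without tumor 81, both called. The tumors spread over an SD of 0.71 on the log2 scale, the adjacent glands over 0.21 and the wild-type pools over 0.32.

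Retinol-binding protein 4, the plasma carrier of vitamin A, had no signal above the floor in any of the 7 tumors. Rbp4 (96047_at) measured 9008, 10011 and 13545 in wild-type pools 40, 41 and 42. Adjacent glands 23, 25, 49 and 51 had 3420, 3985, 5259.8 and 8495. All adjacent glands were below all pools, and the pair of lot 2004907 (49 and 51) was above the pair of lot 2001815. Tumors ranged from 31.2 to 85.6 with a median of 66.0, and set B tumors 80 and 81 had 35.9 and 22.8. Rbp4 was at least 105-fold lower in tumors (log2 difference -6.72 ± 0.27, limma adjusted p = 8.09e-11) and at least 105-fold lower in set B (adjusted p = 2.10e-09).

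The 2 leptin probe sets gave different sizes for the fall. Lep 98444_g_at measured 3623, 8787 and 10524 in wild-type pools 40, 41 and 42 and 8146, 3297, 2143 and 4251 in adjacent glands 23, 25, 49 and 51. Tumors 22, 24, 26, 50 and 52 had 208, 220, 182, 186 and 198, and set B tumors 80 and 81 had 132 and 174. On this probe set the 5 tumors were close together (SD 0.11 on the log2 scale) and not far above the floor. Lep 98443_at measured 8257, 22194 and 23838 in the pools and 9568, 10014, 5684 and 5835 in the adjacent glands, in the same order. It still measured 2326, 5844, 4426, 3030.3 and 1651 in the tumors and 2190.3 and 3584 in set B. Here tumor 24 was above adjacent glands 49 and 51, so tumors and adjacent gland overlapped. Against wild-type gland the fall in tumors was 35.0-fold on 98444_g_at (log2 difference -5.13 ± 0.38, limma adjusted p = 9.68e-08) and 5.22-fold on 98443_at (-2.38 ± 0.41, adjusted p = 3.56e-04). In set B the log2 differences were -5.52 ± 0.48 (adjusted p = 1.00e-06) and -2.54 ± 0.51 (adjusted p = 0.00195).

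The disagreement between the leptin probe sets was itself set against the spread between arrays, a test chosen after the values were seen. The log2 value of 98443_at minus that of 98444_g_at was 3.98 ± 0.72 in tumors (SD, n = 5), 0.92 ± 0.68 in adjacent gland (n = 4) and 1.23 ± 0.09 in wild-type pools (n = 3). Tumors differed from adjacent gland by 3.06 (exact two-sided permutation p = 0.0159, adjusted p = 0.0476 over 3 comparisons). They differed from wild-type pools by 2.75 (exact permutation p = 0.0357, adjusted p = 0.0536). Both p-values are the smallest their group sizes allow, so they do not rank these comparisons. The difference between adjacent gland and wild-type pools was -0.31 (exact permutation p = 0.571, adjusted p = 0.571). The size of the leptin change therefore depends on the probe set, and which of them follows the transcript was not tested.

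Angiotensinogen, the precursor of the angiotensin peptides, had a different order of groups. Agt (101887_at) measured 1554, 1114 and 1295 in wild-type pools 40, 41 and 42. Adjacent glands 23, 25, 49 and 51 had 271, 137, 438 and 798, and tumors 22, 24, 26, 50 and 52 had 263, 344, 679.6, 313 and 593. Both groups lay below every pool and overlapped each other. Set B tumors 80 and 81 had 786 and 1128, above all 5 tumors and, for tumor 81, above pool 41. Agt was 3.20-fold lower in tumors than in wild-type gland (log2 difference -1.68 ± 0.47, limma adjusted p = 0.0137). In set B its log2 difference from wild-type gland was -0.47 ± 0.59 (adjusted p = 0.623). From highest to lowest the geometric means were 1309 in wild-type pools, 942 in set B, 409 in tumors and 338 in adjacent gland, and in the 5 comparisons run limma separated only tumors from wild-type pools.

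**Figure D2:**
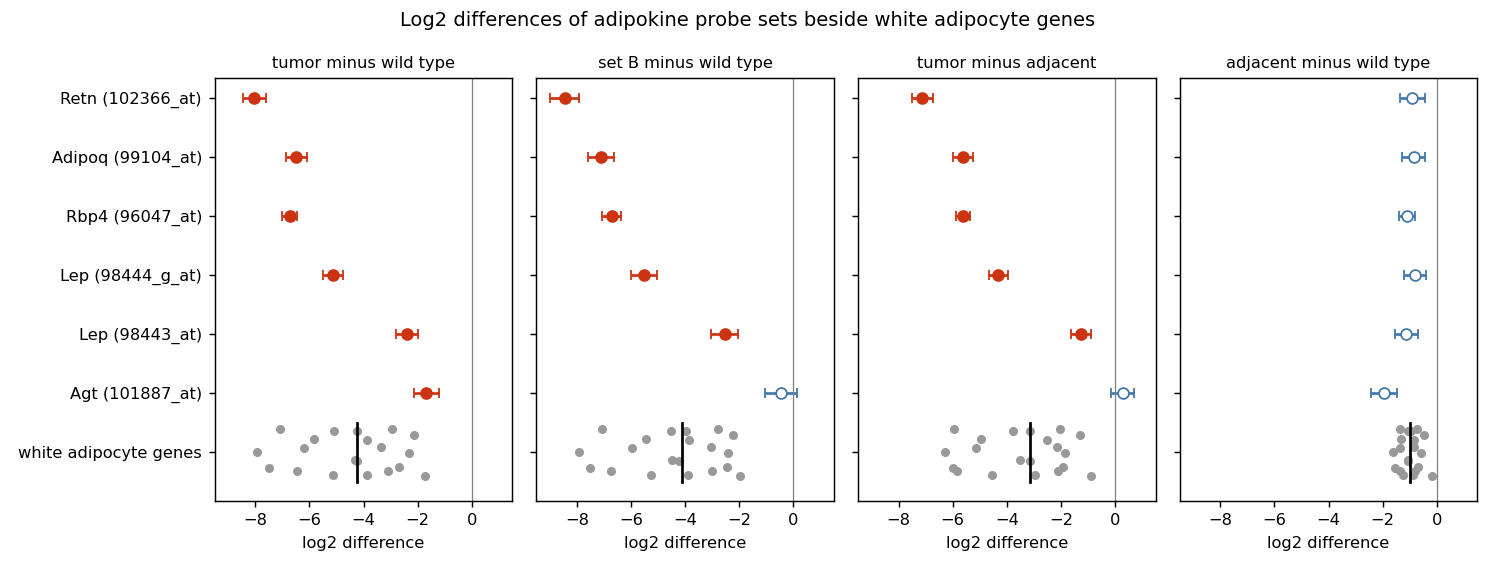
Log2 difference ± SE of each member probe set in 4 comparisons, above the 20 white adipocyte genes (grey points, black bar at their median). Filled red points were called at an adjusted p under 0.05 and open blue points were not. In tumors against wild-type gland the members run from -8.03 (Retn) to -1.68 (Agt), and the list's median is -4.23.

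Tumors (n = 5) were first compared with wild-type gland (n = 3). All 6 member probe sets fell, where limma called 14.1% of the 8616 probe sets tested lower. The groups did not overlap for any of the 6, as for 16.1% of all probe sets tested in the lower direction. Of 20 white adipocyte genes measured, all 20 were called lower too, with a median log2 difference of -4.23, beside a median of 0.16 over all probe sets tested. The fall of Agt was smaller than that of each of the 20.

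Markers of several other cell types moved with the same comparison, while of 7 macrophage markers 2 fell and 1 rose (median -0.23). Of 4 hepatocyte markers 1 fell (median -0.44). Of 10 fibroblast markers all 10 fell (median -2.90), of 12 skeletal muscle markers 10 fell and 1 rose (median -3.68), of 9 endothelial markers 7 fell (median -1.85) and of 6 brown adipocyte markers 5 fell (median -2.86). The summed intensity of the fibroblast markers was 128699 to 157717 in wild-type pools and 14345 to 39394 in tumors. In the same order that of the endothelial markers was 24718 to 30314 and 6405 to 9181, that of the skeletal muscle markers 70746 to 133096 and 2315 to 10861, and that of the brown adipocyte markers 23794 to 40235 and 1969 to 4287. Tnni2 and Pgam2 of the muscle list and Ucp1 of the brown adipocyte list were at the floor in every tumor. Their part in the members' values was not tested.

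With lot as a fixed block, which reaches the wild-type pools only through the adjacent glands, Retn (-7.59), Adipoq (-6.14), Rbp4 (-5.62) and Lep 98444_g_at (-4.94) were still called. Lep 98443_at (-1.84, adjusted p = 0.127) and Agt (-0.36, adjusted p = 0.895) were then not called, and 16 of the 20 white adipocyte genes were. Of the other marker lists 11 of 12 skeletal muscle, 5 of 10 fibroblast, 0 of 9 endothelial and 0 of 6 brown adipocyte genes were called lower. With lots 2004097 and 2004907 taken as one, Retn was at -7.17 and Lep 98444_g_at at -4.43, both called.

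Set B repeated the comparison in 2 further tumors. Of the 6 member probe sets 5 fell against wild-type gland and Agt did not pass, where 12% of all probe sets tested were called lower. The same 20 white adipocyte genes were called lower, with a median of -4.11, as were 10 of 10 fibroblast, 10 of 12 skeletal muscle, 6 of 9 endothelial and 4 of 6 brown adipocyte markers, whose part was not tested. This comparison shares the 3 wild-type pools with the first. Directly against the other tumors, none of the 6 members was called, and 0% of the 8616 probe sets was, while 932 (10.8%) had an unadjusted p under 0.05. Agt had the smallest unadjusted p of the members (0.0408), being 2.30-fold higher in set B (SE 0.54 on the log2 scale, adjusted p = 0.438) and no overlap between the groups, as for 6.2% of all probe sets tested in the higher direction. Lot and set B cannot be told apart.

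The second comparison asked whether the members already differed in adjacent gland (n = 4). All 6 estimates were below wild-type gland, between -0.81 and -1.95 on the log2 scale, and limma called none of the 6, where it called 0.453% of all probe sets tested lower. An unadjusted p under 0.05 was seen for 3 of the 6: Agt, Rbp4 and Lep 98443_at. Over all probe sets tested 5.92% had such a p with a lower value. Agt had the log2 difference -1.95 ± 0.49 (adjusted p = 0.0654) and Rbp4 -1.11 ± 0.29 (adjusted p = 0.0723). For these genes and for Adipoq (-0.86 ± 0.41, adjusted p = 0.346) the groups did not overlap, as for 6.82% of all probe sets tested in the lower direction. Retn (-0.91 ± 0.46), Lep 98443_at (-1.12 ± 0.42) and Lep 98444_g_at (-0.81 ± 0.40) had adjusted p-values of 0.369, 0.225 and 0.359, with overlap. Of the 20 white adipocyte genes 3 fell, Ces1d (-1.63 ± 0.24), the adipocyte transcription factor gene Cebpa (-1.37 ± 0.30) and Cidec (-1.25 ± 0.28). Their list had a median of -1.0, and 5 of the 6 member probe sets lay within 0.19 of it, while Agt lay 0.95 below it and below all 20 genes. With lot as a fixed block 0 of the 20 genes were called, and the list's median was -0.73.

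Agt and Rbp4, not called in the reported fit, passed once 1 gland was left out. Without adjacent gland 51, which held the highest Retn, Adipoq, Rbp4 and Agt of its group, Agt (-2.37, adjusted p = 0.0153) and Rbp4 (-1.36, adjusted p = 0.0161) were called. Within lot 2004907, which held 2 adjacent glands and pool 40, the log2 differences were -1.39 for Agt, -0.78 for Adipoq, -0.52 for Lep 98443_at, -0.43 for Rbp4, -0.29 for Retn and -0.26 for Lep 98444_g_at. That fit rests on a lone pool, assumed to vary like the glands, and limma called 0 of all probe sets in it (523 had an unadjusted p under 0.05), so its missing calls say nothing about the members. Skeletal muscle markers moved with the same comparison: their summed intensity was 70746 to 133096 in the pools and 4019 to 47285 in adjacent gland. Their part in these differences was not tested.

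The third comparison set tumors against adjacent gland. Of the 6 member probe sets 5 fell, where 9.04% of all probe sets tested were called lower. The log2 differences were -7.12 ± 0.40 for Retn (limma adjusted p = 6.44e-09), -5.62 ± 0.36 for Adipoq (adjusted p = 3.22e-08) and -5.61 ± 0.25 for Rbp4 (adjusted p = 3.46e-10). The floor makes those of Retn and Rbp4 lower bounds in size. Those of Lep 98444_g_at and Lep 98443_at were -4.32 ± 0.35 (adjusted p = 5.01e-07) and -1.26 ± 0.37 (adjusted p = 0.0318). Agt differed by 0.28 ± 0.43 (adjusted p = 0.760). Of the marker lists 19 of 20 white adipocyte, 10 of 10 fibroblast, 7 of 9 endothelial, 4 of 6 brown adipocyte and 2 of 12 skeletal muscle genes fell in the same comparison, and their part was not tested. With lot as a fixed block the counts were 17, 9, 2, 1 and 10 in the same order. Within lot 2001815, with 3 tumors and 2 adjacent glands, the log2 differences were -7.30 for Retn, -5.36 for Adipoq, -5.19 for Rbp4 and -4.68 for Lep 98444_g_at, all called. Those of Lep 98443_at (-1.32, adjusted p = 0.149) and Agt (1.03, adjusted p = 0.429) were not. The call of Lep 98443_at was also lost without the arrays of lot 2001815 (-1.36, adjusted p = 0.0964), without the filter on dim probe sets (adjusted p = 0.10) and when tumor 22, 50 or 52 or adjacent gland 23 or 25 was left out, with adjusted p-values of 0.0570 to 0.0876.

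The wild-type pools differed most in leptin. The 41-week pools were 2.79-fold above the 31-week pool on Lep 98443_at and 2.65-fold on Lep 98444_g_at. The corresponding ratios were 1.48 for Retn, 1.29 for Rbp4, 1.12 for Adipoq and 0.773 for Agt. The 20 white adipocyte genes had a median ratio of 1.14 and ranged from 0.769 to 1.74, so both leptin values lay above that range. The difference between 1 pool and 2 pools was not tested, and age, lot and strain share cannot be told apart.

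The members' profiles over the 14 arrays were compared as a description, since the groups set most of each correlation. Pearson's r of log2 values was 0.989 between Retn and Rbp4, 0.980 between Adipoq and Rbp4, 0.974 between Retn and Adipoq and 0.869 between the leptin probe sets. Agt had r of 0.15 to 0.23 with the other probe sets over the 14 arrays. Over the 7 gland arrays alone its r was 0.908 with Rbp4, 0.819 with Retn, 0.759 with Adipoq and 0.330 with each leptin probe set. The profiles most like that of Retn were those of Igfbp6, an IGF-binding protein gene (r = 0.998), of Cdo1, which encodes cysteine dioxygenase (r = 0.990), and of Cidec (r = 0.988). For Adipoq they were the carbonic anhydrase gene Car3 (r = 0.997), Cdo1 (r = 0.988) and Ndn (r = 0.986), and for Rbp4 the transcription factor gene Twist1 (r = 0.998), Ces1d (r = 0.997) and Cidec (r = 0.995). Lep 98444_g_at was nearest to Sncg (r = 0.989), Cidec (r = 0.984) and the fatty acid transporter gene Slc27a1 (r = 0.983). Lep 98443_at was nearest to Gstm2, a glutathione transferase gene (r = 0.928), Rgcc (r = 0.923) and Itgb1bp1 (r = 0.920). Agt was nearest to Grn, which encodes progranulin, at only r = 0.844, Ube2b (r = 0.840) and Sh3bgrl (r = 0.83).

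**Figure D3:**
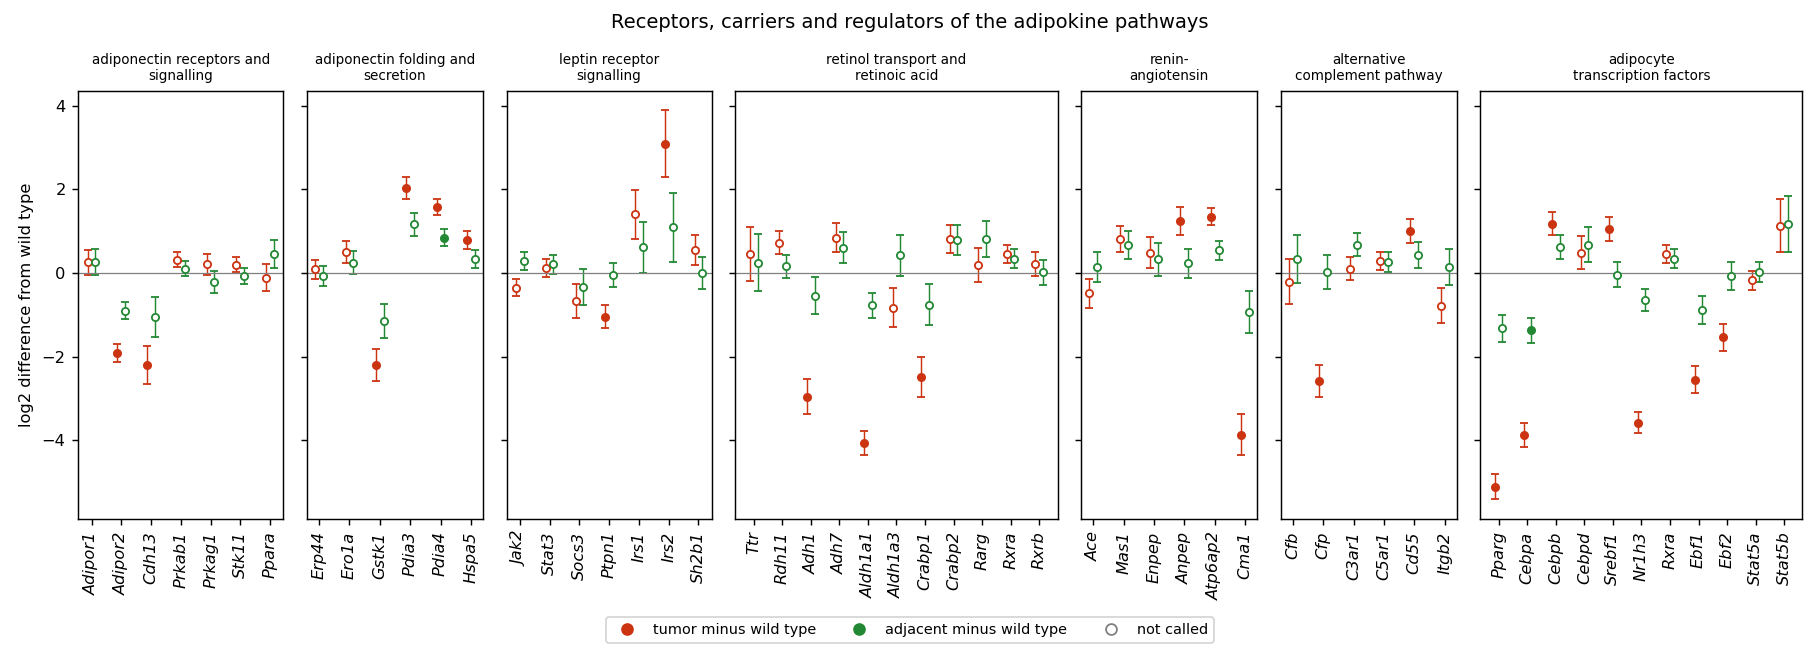
Log2 difference ± SE from wild-type gland of genes that act with the adipokines, in tumors (red) and adjacent gland (green), with filled points called at an adjusted p under 0.05. In tumors the called genes of each list move in both directions, apart from the adiponectin receptor and retinoid lists, whose called genes were lower.

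Genes that receive, fold or process these proteins were counted in tumors against wild-type gland, where 14.1% of all probe sets tested were called lower and 15.8% higher, with a median of 0.16. Of 7 genes of adiponectin receptors and signalling 2 fell and none rose, and the median of 0.20 was near that of all probe sets. Adipor2, a 7-transmembrane receptor of adiponectin, measured 15240 to 16395 in wild-type pools, 6347 to 11351 in adjacent gland and 3622 to 5722 in tumors, and fell by 1.91 ± 0.20 (adjusted p = 4.45e-06). Cdh13, which encodes T-cadherin, a binding partner of adiponectin oligomers, was at the floor in every tumor, with a log2 difference of at least -2.20 ± 0.46 (adjusted p = 0.00178). The other receptor, Adipor1, differed by 0.26 ± 0.30 (adjusted p = 0.540). Adipor2 was called with lot as a fixed block (-2.05), and Cdh13 was not (-1.80, adjusted p = 0.386).

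Of 6 genes of adiponectin folding and secretion 3 rose and 1 fell, beside 15.8% higher and 14.1% lower over all probe sets (list median 0.65). The disulfide isomerase genes Pdia3 and Pdia4 rose by 2.03 ± 0.26 and 1.59 ± 0.19, and Hspa5, the chaperone BiP, by 0.79 ± 0.21. Gstk1, also known as DsbA-L, which promotes assembly of adiponectin multimers, fell by 2.19 ± 0.38 (limma adjusted p = 4.19e-04). Pdia4 also rose in adjacent gland (0.85 ± 0.19, adjusted p = 0.0462), but 0 of the 6 genes were called there with lot as a block. In tumors with lot as a block, Pdia3 (1.86) and Pdia4 (2.17) were called and Gstk1 (-1.83, adjusted p = 0.279) and Hspa5 (1.23, adjusted p = 0.148) were not.

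Of 9 genes of leptin receptor signalling on the array 7 passed the filter on dim probe sets, and the receptor gene Lepr did not. Irs2, an adaptor that links receptors to PI3 kinase, was the 1 gene of them that rose, by 3.09 ± 0.80 (adjusted p = 0.00809), from 71.8 to 115 in wild-type pools to 227 to 1758 in tumors. As 2 of the 3 pools were under the floor, this is a lower bound. Ptpn1, a phosphatase that dampens leptin signalling, was the 1 that fell, by 1.04 ± 0.27 (adjusted p = 0.00779). Jak2 (-0.35 ± 0.20) and Stat3 (0.11 ± 0.22), the kinase and transcription factor of the pathway, were not called. None of the 7 was called with lot as a block (Irs2 4.42, adjusted p = 0.189, and Ptpn1 -0.84, adjusted p = 0.518). Cap1, which encodes a reported receptor of resistin, differed by 0.14 ± 0.27 in tumors (adjusted p = 0.724) and rose by 1.51 in set B (adjusted p = 0.00451).

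Among 11 genes of retinol transport and retinoic acid 3 fell and none rose, beside 14.1% lower and 15.8% higher over all probe sets, and the list's median of 0.22 was near the 0.16 of all. Aldh1a1, a retinaldehyde dehydrogenase, measured 1925 to 2849 in wild-type pools and 68.0 to 174 in tumors (log2 difference -4.06 ± 0.29, limma adjusted p = 5.63e-08). The retinol-oxidising alcohol dehydrogenase gene Adh1 and Crabp1, a retinoic acid-binding protein gene, had log2 differences of -2.95 ± 0.42 and -2.47 ± 0.48, both called. Aldh1a1 was also called with lot as a block (-4.63), while Adh1 (-2.21, adjusted p = 0.227) and Crabp1 (-1.95, adjusted p = 0.358) were not.

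Of 6 genes of the renin-angiotensin system 2 rose and 1 fell (median 0.65), beside 15.8% higher and 14.1% lower over all probe sets. Cma1, a mast cell chymase that can form angiotensin II, fell 14.6-fold (adjusted p = 2.26e-05). The prorenin receptor gene Atp6ap2 rose 2.55-fold (adjusted p = 1.43e-04), and Anpep, an aminopeptidase, rose by 1.24 ± 0.34. The gene of angiotensin-converting enzyme, Ace, was not called (-0.48 ± 0.34). Of 6 genes of the alternative complement pathway, in which the product of Cfd acts, 1 fell and 1 rose, near the same background (median -0.05). Cfp, the gene of properdin, fell by 2.58 ± 0.39, and Cd55, a complement inhibitor gene, rose by 1.0 ± 0.30. None of the genes of these 2 lists was called with lot as a block.

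Of 11 adipocyte transcription factor genes 5 fell and 2 rose in tumors, beside 14.1% lower and 15.8% higher over all probe sets (list median -0.17). Pparg, the regulator of adipocyte differentiation, measured 3412 to 4245 in wild-type pools, 991 to 2323 in adjacent gland and 10.3 to 152 in tumors, of which 3 were under the floor. It fell at least 34.5-fold (adjusted p = 6.58e-09). Cebpa fell 14.7-fold (adjusted p = 8.34e-08), and the liver X receptor gene Nr1h3 and the early B-cell factor genes Ebf1 and Ebf2 had log2 differences of -3.57 ± 0.26, -2.55 ± 0.33 and -1.54 ± 0.32. Cebpb rose by 1.18 ± 0.28 and Srebf1 by 1.05 ± 0.28. With lot as a block, Pparg (-4.44), Cebpa (-3.26), Nr1h3 (-3.65) and Ebf1 (-2.78) were called and Ebf2 (-2.10, adjusted p = 0.0708), Cebpb (1.32, adjusted p = 0.281) and Srebf1 (1.98, adjusted p = 0.0631) were not.

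**Figure D4:**
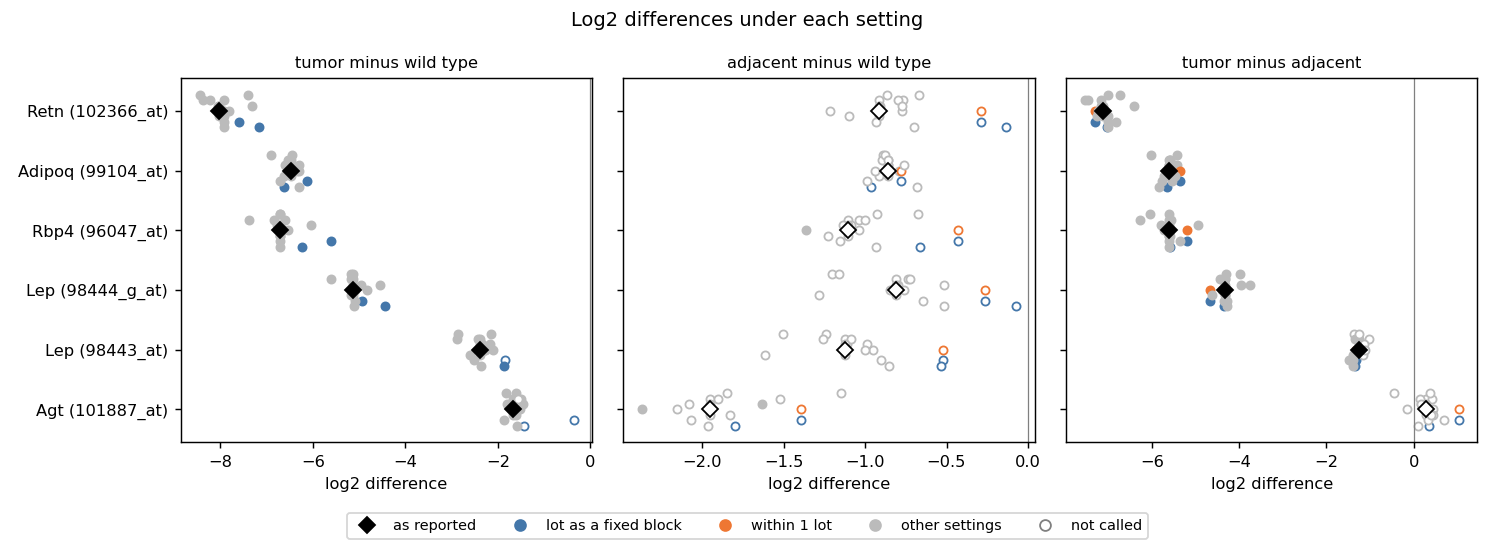
Log2 difference of each member probe set as reported (black diamonds) and under each alternative (circles: blue with lot as a fixed block, orange within 1 lot, grey otherwise), with filled symbols called at an adjusted p under 0.05. Retn, Adipoq, Rbp4 and Lep 98444_g_at stay filled in both comparisons with tumors. For tumors against wild-type gland Agt is open in 3 settings and Lep 98443_at in 1, and for tumors against adjacent gland Lep 98443_at is open in 8.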

How the data were processed

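RNA of 14 mouse mammary samples was measured on 1-color arrays, 1 sample per array. Each deposited value is the intensity of a probe set on a linear scale. Which software the authors used to make them, the sources used here do not state. The mean after trimming 2% at each end was 1500.67 to 1500.9 on every array, so the deposited intensities were taken as scaled to a common mean and were not normalized again. Values under 101.42 (the 20th percentile of all values) were set to this floor and log2 was taken. The 66 controls were left out, and a probe set was kept where it was brighter than its array's 40th percentile on 3 or more arrays, which dropped 3806. All 6 member probe sets passed.

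limma 3.58.1 in R 4.3.3 fitted all 14 arrays and 4 groups to 8616 probe sets (eBayes with trend, 10 residual and 5.75 prior degrees of freedom, two-sided). p-values were Benjamini-Hochberg adjusted over all probe sets tested and called under 0.05. Folds against a group with values at the floor are lower bounds. The fit was tested on simulated data. Probe sets were named through the supplied platform annotation (10855 with 1 gene, 396 with several and 1237 with none), and 10839 symbols were updated to RefSeq names. A listed gene was represented by its brightest tested probe set. The text names the called genes with the largest change, up to 4 of the white adipocyte list and up to 2 of each list not of a cell type. It also names the 3 genes most correlated with each member, and others of these lists chosen after their values were seen. From the other cell type lists it names only Krt19 and genes at the floor in every tumor, also chosen after their values were seen. The members and lists were chosen with earlier results of these data known.

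Alternatives were a floor at the 10th percentile, the floor value added instead, quantile normalization, no filter, only the groups compared, lot as a fixed or random block, fits within a lot, and each array left out. Leaving out lot 2001815 and the block for gene lists were added after seeing the data. The number of arrays limits the precision.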

Additional observations from a re-analysis of the deposited data

Results flagged for a closer look

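Retn in tumor 52 stood apart from the other 4 tumors. It measured 437.3 there and 48.8 to 100.7 in the others, a gap wider than Dixon's criterion allows for 5 samples. Chance flags about 1 in 20 groups. The same tumor was not the highest of the 5 for Adipoq, Rbp4 or either leptin probe set, and its white adipocyte genes had a median log2 difference of -4.31 from wild-type gland, inside the range of the other tumors (-4.77 to -3.82). The cause was not tested.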

How the results depend on the processing

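The directions of the called members held under all alternatives run. The number of probe sets called in tumors against wild-type gland was 360 with lot as a fixed block and 921 when lots 2004097 and 2004907, whose numbers differ by the order of their digits, were taken as one. In that fit Agt was not called (-1.44, adjusted p = 0.225), nor was it without pool 40 (adjusted p = 0.0582, with 0.00383 to 0.895 over all alternatives). In adjacent against wild-type gland the 101 probe sets called became 53 without the filter, 56 with the block, 26 with the merged lots, 28 with only these groups, 0 within lot 2004907 and 157 without lot 2001815. Without single arrays they were 14 to 200: 50 without pool 40, 24 without pool 41, 14 without pool 42, 36 without gland 49 and 200 without gland 51. Adding the floor value called 1 member there, Agt (-1.63, adjusted p = 0.0495), and leaving out an array called 0 to 2. In tumors against adjacent gland 1239 probe sets became 597 with the block and 209 within lot 2001815, and Lep 98443_at was not called without the filter (adjusted p = 0.10). The uncalled difference of Agt turned to -0.46 without lot 2001815 and ranged from -0.16 (without gland 25) to 0.69 without single arrays.

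For set B against wild-type gland, 1998 probe sets became 1053 to 1664 without single arrays (1053 without tumor 81, 1138 without tumor 80). Against the other tumors 1 probe set was called without the filter, 1 without lot 2001815 and 0 to 3 without single arrays. Uncalled differences between set B and the other tumors turned to 0.025 for Lep 98444_g_at (quantile normalization) and 0.33 for Lep 98443_at (without lot 2001815). Without single arrays they ranged from -0.52 to 0.19 for Lep 98443_at and from -1.59 to 0.32 for Adipoq. No fixed lot block could be fitted for set B, since no other group shares its lot. No paired analysis was run, since the groups share no replicate numbers and the labels do not tie samples to mice. Whether some tumors and adjacent glands came from the same mouse is therefore unknown, and the fits ignore any such pairing. The cause of these changes was not tested; the fits within 1 lot or without an array also hold fewer arrays. Signals at the floor limit Retn and Rbp4 in tumors to bounds.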

Other observations

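Other secreted proteins of fat tissue also differed in tumors against wild-type gland: of 21 genes measured 11 fell and 1 rose, beside 14.1% lower and 15.8% higher over all probe sets, with a median log2 difference of -1.16. Rarres2, which encodes the adipokine chemerin, measured 14625 to 23578 in wild-type pools, 4675 to 12880 in adjacent gland and 288 to 1367 in tumors, a 31.5-fold fall (limma adjusted p = 7.68e-05). Gpx3, a plasma glutathione peroxidase, fell 24.5-fold (adjusted p = 4.36e-08). It was also the 1 gene of the list called in adjacent gland, at 8101 to 17037 against 42612 to 42665 (log2 difference -1.92 ± 0.33, adjusted p = 0.0136). That call was lost with lot as a block, where 0 of the 21 were called in adjacent gland. Lcn2, which encodes lipocalin 2, a product of adipocytes and of mammary epithelium, rose by 2.78 ± 0.30, from 10222 to 13202 in the pools to 65513 to 95457 in tumors (adjusted p = 4.45e-06). In tumors with lot as a block 2 of the 21 fell, Gpx3 (-4.37) and the matrix protein gene Sparc (-1.94), and Lcn2 rose (3.00). Rarres2 was then not called (-3.46, adjusted p = 0.232).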
